A study of Sus scrofa with 12 samples.

Results

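The vascular endothelial growth factor (VEGF) system was described in the endometrium of sows through 9 genes, taken by symbol from a table of 20674 genes. They were the ligands VEGFA, VEGFB, VEGFC and PGF, the receptors FLT1, KDR and FLT4, and the co-receptors NRP1 and NRP2, and all 9 were among the 15351 genes with enough reads to be tested. The 12 libraries fell into 4 diet groups of 3, and the sows were Landrace × Yorkshire crosses fed through a gestation of 114 days. L − N received a low-fiber diet of 3.73% crude fiber without N-carbamylglutamate (NCG), and L + N received the same diet with 0.05% NCG. H − N received a high-fiber diet of 7.46% crude fiber without NCG, and H + N received that diet with 0.05% NCG. Fiber was raised by replacing part of the corn with soybean bran and beet pulp, so fiber level and feed ingredients cannot be told apart. NCG is an analogue of N-acetylglutamate, the cofactor of the first enzyme of the urea cycle, and is fed to raise the synthesis of arginine. The study asked how fiber and NCG, alone and together, relate to gene expression in this tissue, with L − N as the basal control.

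VEGF ligands are secreted proteins that bind receptor tyrosine kinases on endothelial cells and so direct the growth and permeability of vessels. VEGFA acts mainly through KDR on blood vessels, whereas FLT1 binds VEGFA, VEGFB and PGF tightly with weaker kinase signalling, and VEGFC acts through FLT4 on lymphatic vessels. Neuropilins are co-receptors that lack a kinase and also bind class 3 semaphorins. In the uterus, the VEGF system is known for the remodelling of vessels that supply the implantation site and the placenta.

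The libraries held between 14369781 and 19309724 counted reads, and every one of the 9 genes had at least 137 reads in every library. The labels do not say whether each library came from a separate sow, so p-values below measure the spread between these libraries. Libraries were compared within groups before use, and none was a copy of another. The library L − N replicate 1 stood apart from the rest of its group, with a chi-square per gene of 103 and 78.1 against the other two, which differed from each other by 24.2. H − N replicate 3 likewise stood apart from its group (83.3 and 71.0, against 25.0 between the other two), and in H + N replicates 2 and 3 differed by 84.0. L − N replicate 1 had the highest PGF, KDR and FLT4 of all 12 libraries, and its summed level of 6 macrophage markers was 579 CPM (reads of a gene scaled to the normalized library size) against 1509 and 1536 CPM in replicates 2 and 3. Values without it, or without another library, are given beside the members' calls that turned on it and beside some of the directions that did. Markers of epithelium (EPCAM, KRT8, CDH1) and stroma (DCN, COL1A1, COL3A1) were abundant in every group. Of 6 trophoblast markers in the table, the placental glycoproteins PAG6 and PPAG3 had 0 counts in all 12 libraries and GCM1 had at most 4, while the transcription factors TFAP2A, TFAP2C and ELF5 reached 103, 164 and 48 reads.

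Per transcript length and over all groups, VEGFB and VEGFA had the highest means among the ligands and KDR and NRP1 among the receptors. In the deposited FPKM, which divides reads by transcript length and library size, the mean over 12 libraries was 38.8 ± 7.30 (SD) for VEGFB, 32.1 ± 15.0 for VEGFA, 29.1 ± 6.54 for KDR and 27.4 ± 4.55 for NRP1. A lower set followed, with FLT1 at 9.26 ± 2.14, PGF at 8.41 ± 3.09, NRP2 at 7.76 ± 2.33 and FLT4 at 6.45 ± 2.99 FPKM. VEGFC was the lowest at 2.59 ± 0.578 FPKM. Of the 8 neighbouring pairs in this order, 2 differed beyond their spread in an exact sign-flip permutation test within libraries, adjusted over the 8 pairs. NRP1 lay above FLT1 in 12 of 12 libraries (adjusted p = 0.00195), and FLT4 above VEGFC in 12 of 12 (adjusted p = 0.00195). The adjusted p of the other neighbours lay between 0.0742 and 0.925. The place of VEGFA in this order differed between groups. With L − N it stood at 14.5 ± 2.16 FPKM (SD, n = 3), below VEGFB (45.5 ± 2.23), KDR (29.2 ± 12.6) and NRP1 (28.8 ± 2.91), and with H + N its mean of 44.9 ± 20.7 FPKM was above that of VEGFB (32.6 ± 8.54).

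Against the L − N group, VEGFA was higher and NRP2 lower on the 3 other diets, whereas the differences of KDR, NRP1, PGF and FLT4 lay within the spread of the libraries. In H + N against L − N, 2 of the 9 genes passed the test (edgeR quasi-likelihood, adjusted p under 0.05 over all genes), VEGFA upward and NRP2 downward, where 7.97% of all tested genes passed. The same genes, in the same directions, passed in H − N against L − N, where 5.27% of all genes passed. NRP2 alone passed in L + N against L − N, where 9.60% passed. With the added requirement of an absolute log2 fold change above 1, VEGFA passed with H + N and with H − N, against 3.58% and 2.91% of all genes, and no member passed with L + N, against 3.99%. These 3 comparisons share the L − N libraries and are not independent of each other. In each of them 4 of the 9 genes had libraries that did not overlap those of L − N, against 28.0%, 25.4% and 35.3% of all genes for H + N, H − N and L + N.

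**Figure D1:**
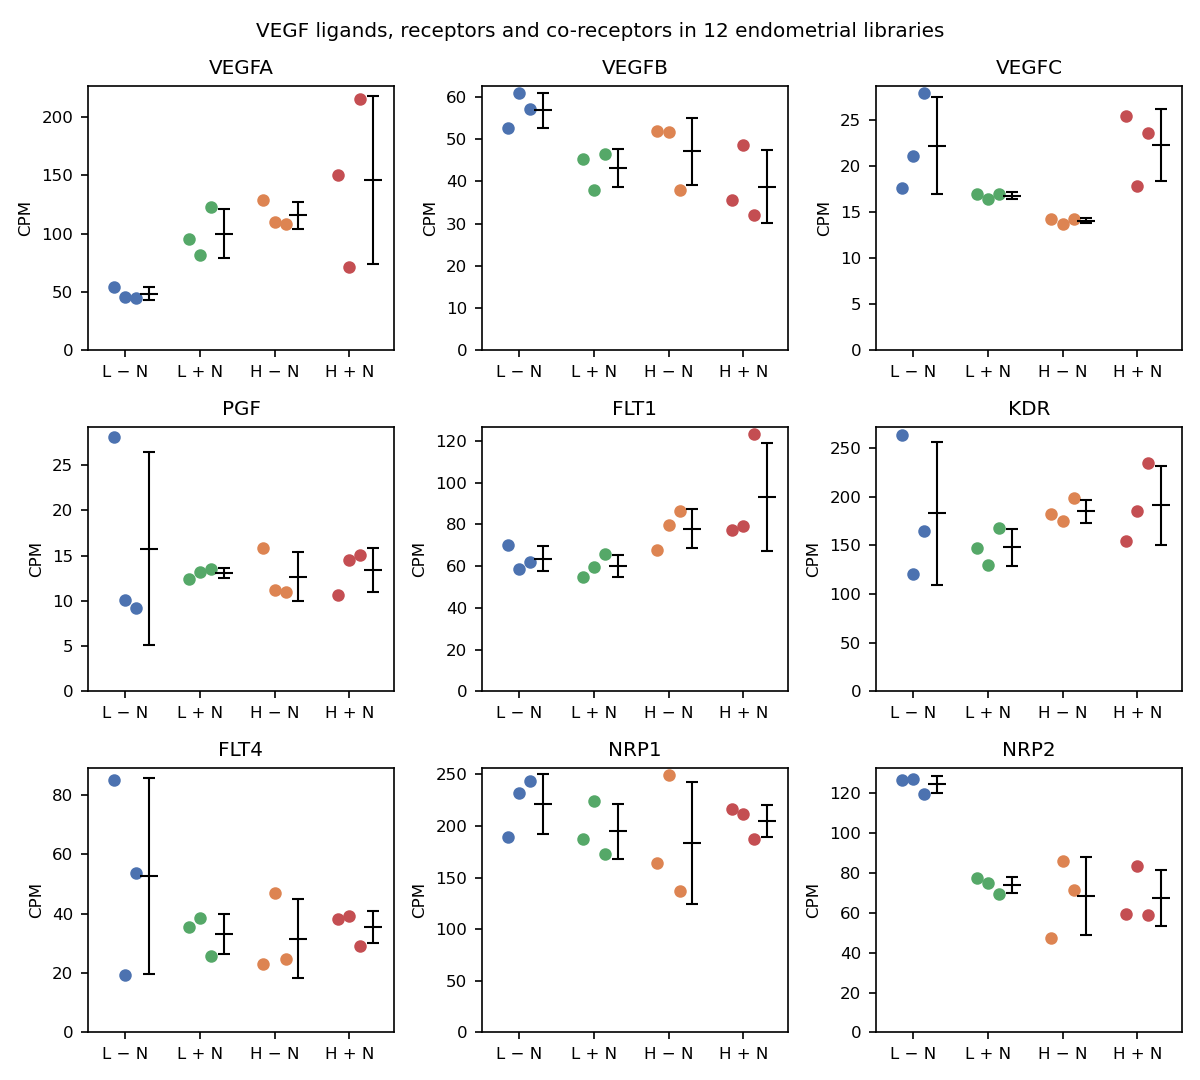
Normalized expression (CPM, linear axes from 0) of the 9 genes in the 12 endometrial libraries, 1 dot per library, with the group mean ± SD as a black bar beside the dots (n = 3). VEGFA lies lowest and NRP2 highest in the 3 L − N libraries, and L − N replicate 1 (first dot) is far above the rest in PGF and FLT4.

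VEGFA, the principal angiogenic ligand, is encoded on chromosome 7 (Sscrofa11.1, 38746393 to 38762282, plus strand). Its levels in L − N were 54.8, 45.8 and 44.5 CPM. In L + N they were 95.2, 81.7 and 123 CPM, and in H − N they were 129, 110 and 108 CPM. In H + N they were 150, 71.8 and 216 CPM, so that replicate 2 lay below every L + N library while replicate 3 was the highest of all 12. Every library of the other groups lay above the highest L − N library, and the groups other than L − N overlapped each other. The group means were 48.4 ± 5.57 CPM with L − N, 100 ± 21.1 with L + N, 116 ± 11.3 with H − N and 146 ± 72.1 with H + N (SD, n = 3). VEGFA rose 3.01-fold in H + N against L − N, a log2 fold change of 1.59 (SE 0.31, edgeR adjusted p = 0.0214). It rose 2.39-fold in H − N against L − N (log2 fold change 1.26, SE 0.31, edgeR adjusted p = 0.0431). In L + N against L − N the log2 fold change was 1.05 (SE 0.31), which did not pass (edgeR adjusted p = 0.0559). Among the single omissions it passed only without replicate 2 or 3 of H + N (edgeR adjusted p 0.013 to 0.0287). The call in H + N was lost without replicate 2 or 3 of L − N or replicate 1 or 3 of H + N, where the log2 fold change lay between 1.20 and 1.55 and the edgeR adjusted p between 0.0518 and 0.0940. The call in H − N held only when the library left out was L − N replicate 1 or replicate 2 or 3 of H + N (edgeR adjusted p 0.0186 to 0.0346), and was lost in the other 9 fits, with a log2 fold change of 1.18 to 1.31 and an adjusted p of 0.0557 to 0.160.

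VEGFB, a ligand of FLT1, had its highest group mean in L − N. It lies on chromosome 2 (7872873 to 7876149, minus strand). Levels were 52.6, 60.9 and 57.0 CPM with L − N, 45.1, 37.9 and 46.4 CPM with L + N, 51.8, 51.5 and 37.9 CPM with H − N, and 35.6, 48.5 and 32.1 CPM with H + N. All 9 libraries of the other diets lay below the lowest L − N library, but their distance to it was small in H − N. The log2 fold change was -0.55 (SE 0.17, edgeR adjusted p = 0.0700) in H + N against L − N and -0.40 (SE 0.17, edgeR adjusted p = 0.165) in L + N against L − N, neither past the test. The first of these passed with edgeR without H + N replicate 2 (log2 fold change -0.76) and with DESeq2 (adjusted p = 0.023). VEGFB overlaps TRPT1, a gene of the opposite strand, over 122 of its 3277 bases, and the sources used here do not say whether reads were counted by strand. TRPT1 had group means of at most 2.91 CPM, far under VEGFB, and passed in none of the comparisons.

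VEGFC, the lymphangiogenic ligand, was lowest with H − N and had its highest means at the ends of the design, without either addition and with both, a pattern whose interaction test, given further on, did not pass with edgeR and passed with DESeq2. It lies on chromosome 15 (39037764 to 39136234, minus strand). Its levels were 17.6, 21.1 and 27.9 CPM with L − N and 17.0, 16.4 and 17.0 CPM with L + N. They were 14.2, 13.7 and 14.2 CPM with H − N and 25.4, 17.8 and 23.5 CPM with H + N. The H − N libraries were the 3 lowest of the 12, while L − N and H + N overlapped and had nearly the same mean, 22.2 ± 5.28 and 22.2 ± 3.94 CPM (SD, n = 3). L + N and H − N were tight, with SDs of 0.366 and 0.272 CPM. H − N against L − N gave a log2 fold change of -0.66 (SE 0.19, edgeR adjusted p = 0.0641), which did not pass. It passed with DESeq2 (adjusted p = 0.0125), and with edgeR when L − N replicate 1 was left out (-0.80). H + N against H − N gave 0.66 (SE 0.19, edgeR adjusted p = 0.451), without overlap of the libraries.

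PGF, placental growth factor, another FLT1 ligand, is on chromosome 7 (98149510 to 98162784, minus strand). L − N replicate 1 held 28.1 CPM, and the other 11 libraries lay between 9.20 and 15.9 CPM, with no order among the groups. Between H + N and L − N the log2 fold change was -0.23 with a 95% confidence interval of -1.04 to 0.58, and it was 0.48 without L − N replicate 1. With H − N and L + N the values of -0.31 and -0.28 became 0.40 and 0.44 without that library. The interval includes a fall as large as that of NRP2.

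The related ligand VEGFD, which shares FLT4 with VEGFC, had group means of 12.5 ± 3.63, 9.99 ± 2.17, 8.31 ± 6.08 and 6.57 ± 6.08 CPM (SD, n = 3) in the order of the plots, from L − N to H + N, and passed in none of the comparisons.

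**Figure D2:**
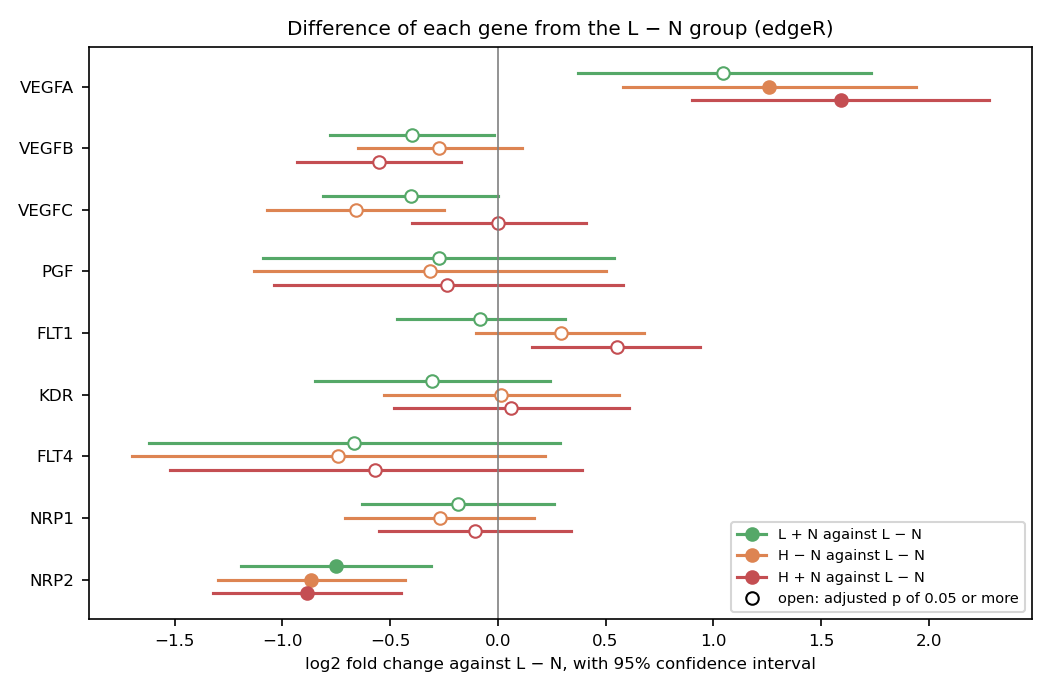
Log2 fold changes of the 9 genes against L − N in the 3 other groups (edgeR), with 95% confidence intervals. Filled circles mark an adjusted p under 0.05: VEGFA in H − N and H + N, and NRP2 in all 3 comparisons.

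Set against each other per length, VEGFA made up a larger share of the ligands in every library outside L − N than within it, a difference that did not pass as a fiber or an NCG difference after adjustment. In L − N, VEGFA made up 18.6 ± 0.749% of the summed FPKM of the 4 ligands and VEGFD (SD, n = 3). Its share was 37.8 ± 2.90% with L + N, 40.9 ± 3.95% with H − N and 47.8 ± 17.9% with H + N. The lowest share outside L − N, 27.9% in an H + N library, was above the highest within it, 19.5%. The share of VEGFB was 59.0 ± 7.91% with L − N and 36.3 ± 13.0% with H + N, and these overlapped, H + N reaching 50.4% and L − N 50.1%. The ratio of VEGFA to VEGFB was 0.321 ± 0.0593 with L − N, 0.861 ± 0.113 with L + N, 0.931 ± 0.134 with H − N and 1.55 ± 0.980 with H + N. VEGFA exceeded VEGFB in 3 libraries, 1 of H − N and 2 of H + N. With 3 libraries a group an exact permutation test between 2 groups cannot go below p = 0.1, so only fiber and NCG over all 12 libraries were tested, for 8 ratios. The VEGFA share gave p = 0.0411 for fiber and p = 0.0909 for NCG (two-sided exact permutation tests), and no relation of the 16 passed after adjustment, the smallest adjusted p being 0.156.

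**Figure D3:**
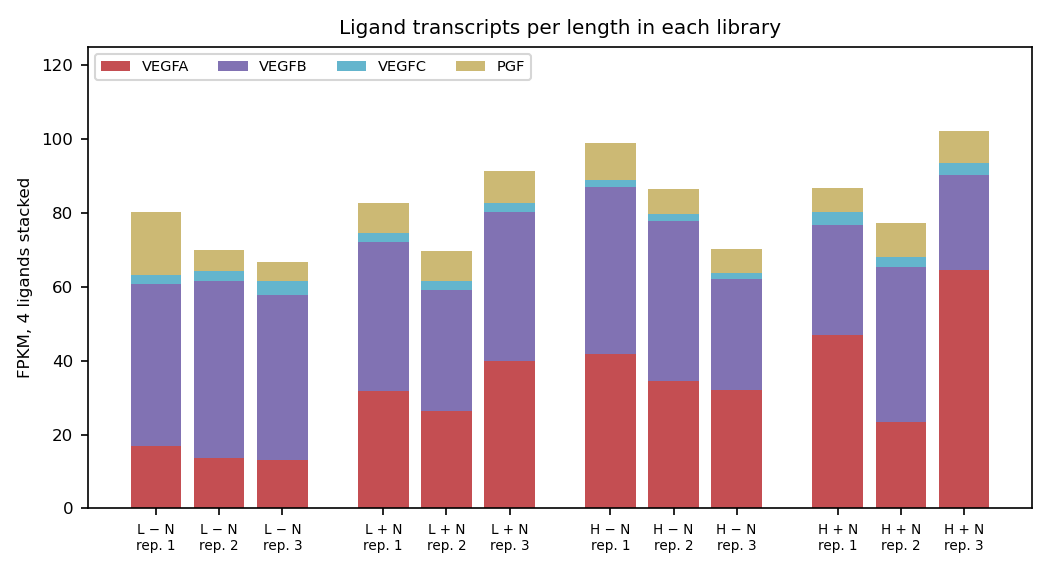
Stacked FPKM of VEGFA, VEGFB, VEGFC and PGF in each library, from 0. The VEGFA part (bottom) is the smallest in the 3 L − N libraries, between 13.1 and 17.0 FPKM, and reaches 64.6 FPKM in H + N replicate 3.

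FLT1, the receptor of VEGFA, VEGFB and PGF, lies on chromosome 11 (5620698 to 5797095, minus strand). Its levels were 70.2, 58.5 and 62.0 CPM with L − N, 54.8, 59.8 and 65.7 CPM with L + N, 67.8, 79.7 and 86.2 CPM with H − N, and 77.5, 79.0 and 123 CPM with H + N. The H + N libraries lay above all low-fiber libraries, and the H − N libraries overlapped L − N. The log2 fold change in H + N against L − N was 0.55 (SE 0.18, edgeR adjusted p = 0.0747), and in H + N against L + N it was 0.63 (SE 0.18, edgeR adjusted p = 0.910), neither past the test. H + N replicate 3 carried part of this, and without it the log2 fold change against L − N was 0.30.

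KDR, the main signalling receptor of VEGFA on blood vessels, is on chromosome 8 (41809116 to 41856379, minus strand). L − N spanned its whole range, with 264, 121 and 165 CPM. The other groups lay within that range, at 148, 130 and 168 CPM with L + N, 182, 175 and 198 CPM with H − N, and 154, 185 and 235 CPM with H + N. Between H + N and L − N the log2 fold change was 0.06 with a 95% confidence interval of -0.48 to 0.61. That interval does not reach the VEGFA estimate of 1.59. Leaving out replicate 2 or 3 of L − N or replicate 3 of H + N turned the KDR sign, to -0.16, -0.01 and -0.11, and leaving out L − N replicate 1 gave 0.42.

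FLT4, the receptor of VEGFC on lymphatic endothelium, is on chromosome 2 (78076008 to 78115137, plus strand). L − N replicates held 85.2, 19.2 and 53.7 CPM, the highest, the lowest and the second highest of the 12 libraries. The other groups ranged from 23.1 to 46.8 CPM. Its spread within groups, an SD of 0.65 on the log2 CPM scale, was the widest of the 9 genes, and the log2 fold change between H + N and L − N, -0.57, had a 95% confidence interval of -1.52 to 0.39. Leaving out L − N replicate 1 gave -0.04. With H − N and L + N the values of -0.74 and -0.67 became -0.21 and -0.13 without that library.

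NRP1, the co-receptor of KDR, lies on chromosome 10 (56280673 to 56430832, minus strand). Its levels were 189, 232 and 243 CPM with L − N, 187, 224 and 173 CPM with L + N, 164, 250 and 137 CPM with H − N, and 216, 212 and 188 CPM with H + N. All groups overlapped, and between H + N and L − N the log2 fold change was -0.11 with a 95% confidence interval of -0.55 to 0.34. The interval does not reach the NRP2 estimate in the same comparison, -0.89, but it overlaps the NRP2 interval of -1.32 to -0.45.

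NRP2, the co-receptor associated with lymphatic vessels and with semaphorins, lies on chromosome 15 (108974246 to 109092316, plus strand). In L − N it stood at 126, 127 and 120 CPM. It stood at 77.7, 74.7 and 69.6 CPM with L + N, 47.2, 86.1 and 71.6 CPM with H − N, and 59.5, 83.4 and 59.0 CPM with H + N. The 9 other libraries all lay below the lowest L − N library and overlapped each other. The means were 124 ± 4.13 CPM with L − N, 74.0 ± 4.08 with L + N, 68.3 ± 19.6 with H − N and 67.3 ± 13.9 with H + N (SD, n = 3). NRP2 fell by 0.89 on the log2 scale in H + N against L − N (SE 0.20, edgeR adjusted p = 0.0282), by 0.87 with H − N (SE 0.20, edgeR adjusted p = 0.0353) and by 0.75 with L + N (SE 0.20, edgeR adjusted p = 0.0387). The call in H + N was lost without replicate 2 or 3 of L − N or replicate 1 or 3 of H + N, with a log2 fold change of -0.91 to -0.80 and an edgeR adjusted p of 0.0651 to 0.0962. The call in H − N was lost without replicate 2 or 3 of L − N, replicate 1 or 2 of L + N, or replicate 1 or 3 of H − N (log2 fold change -0.90 to -0.66, edgeR adjusted p 0.0506 to 0.116). The call in L + N was lost without any one library of L − N or L + N or without H + N replicate 1, with a log2 fold change of -0.78 to -0.69 and an edgeR adjusted p of 0.0515 to 0.118. Per length, NRP1 stood at 2.60 ± 0.396 times NRP2 with L − N and at 3.84 ± 0.468, 4.02 ± 1.15 and 4.55 ± 0.801 times NRP2 with L + N, with H − N and with H + N.

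Over the 4 groups, the share of the total sum of squares that lay between groups on the log2 CPM scale was 74.7% for NRP2, 70.6% for VEGFA, 70.2% for VEGFC, 62.1% for FLT1 and 56.9% for VEGFB. It was 21.2% for NRP1, 20.3% for KDR, 13.9% for FLT4 and 1.55% for PGF. The test of any difference over the 4 groups was passed by NRP2 (edgeR adjusted p = 0.0382) and VEGFA (edgeR adjusted p = 0.0446), where 6.96% of all genes passed. VEGFC (edgeR adjusted p = 0.0845) and FLT1 (edgeR adjusted p = 0.102) did not pass. Without L − N replicate 1, VEGFC passed this test and VEGFA and NRP2 did not. Over all single omissions, VEGFA passed only without replicate 2 or 3 of H + N (edgeR adjusted p = 0.019 and 0.0475). NRP2 passed only without any one library of H − N or without H + N replicate 2.

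When fiber and NCG were separated, no member passed. For high against low fiber, averaged over NCG, 0 of 9 passed with edgeR, 3 had an unadjusted p under 0.05, and DESeq2 called 3 (VEGFA, FLT1 and NRP2). Of all genes, 0.0521% passed with edgeR and 19.5% had an unadjusted p under 0.05. The log2 differences were 0.90 for VEGFA (edgeR adjusted p = 0.0882), 0.46 for FLT1 (edgeR adjusted p = 0.103) and -0.50 for NRP2 (edgeR adjusted p = 0.110). Without L − N replicate 1, VEGFA passed in this comparison. For NCG against no NCG, averaged over fiber, 0 of 9 passed with edgeR, 3 had an unadjusted p under 0.05 and DESeq2 called VEGFA. Of all genes, 7.27% passed with edgeR and 23.6% had an unadjusted p under 0.05. The log2 differences were 0.69 for VEGFA (edgeR adjusted p = 0.0818), -0.34 for VEGFB (edgeR adjusted p = 0.122) and -0.38 for NRP2 (edgeR adjusted p = 0.124). Among the single omissions, VEGFA and VEGFB passed without H + N replicate 2, and NRP2 without H − N replicate 1.

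Adding the other factor to a diet that already had one gave no call. In H + N against H − N and in H + N against L + N, 0 of 9 members and 0% of all genes passed with edgeR, DESeq2 called 0 members in both, and 1 member in each had an unadjusted p under 0.05, VEGFC and FLT1, against 8.67% and 4.68% of all genes. The interaction of fiber and NCG was passed by 0 members and 0% of all genes with edgeR, 2 members had an unadjusted p under 0.05 (against 12.8% of all genes), and DESeq2 called VEGFC. The interaction of VEGFC was 1.07 on the log2 scale (SE 0.26, edgeR adjusted p = 0.255). That of NRP2 was 0.73 (edgeR adjusted p = 0.324).

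VEGFA is a textbook target of the hypoxia-inducible factors, and 22 other listed targets were tested. Of them, 0 were higher and 5 lower in H + N against L − N, where 7.97% of all genes passed in either direction. With H − N, 0 were higher and 3 lower, against 5.27% of all genes, and with L + N 0 were higher and 3 lower, against 9.60%. Their median log2 fold changes were -0.48, -0.35 and -0.42, where the medians over all genes were 0.02, 0.03 and -0.02. ADM, the vasodilator peptide adrenomedullin, fell by 1.75, 1.60 and 1.93 on the log2 scale in H + N, H − N and L + N (edgeR adjusted p = 0.0308, 0.0476 and 0.0183). DDIT4, an inhibitor of mTORC1 signalling, fell by 0.995, 0.67 and 0.79 in the same order (edgeR adjusted p = 0.0136, 0.0192 and 0.00818). PDK1, which holds pyruvate back from the mitochondrial citrate cycle, fell by 0.81, 0.70 and 0.82 in that order (edgeR adjusted p = 0.0151, 0.0207 and 0.00818). NDRG1 and the mitophagy receptor BNIP3L fell in H + N by 0.70 and 0.55 (edgeR adjusted p = 0.0469 for both). For NCG against no NCG, PDK1 and DDIT4 were lower (log2 differences of -0.46 and -0.56, edgeR adjusted p = 0.0136 and 0.00578). Of the 22 targets, 3, 2 and 3 had a log2 fold change above 0 with H + N, H − N and L + N, and all of these lay below that of VEGFA. Without L − N replicate 1, 6 targets passed in each of the 3 comparisons, and under other single omissions the counts reached as low as 0 with H + N and H − N and 2 with L + N. Of the 9 tested genes of oxygen sensing itself, ARNT2, a partner of the hypoxia-inducible factors, was lower in H + N (log2 fold change -0.92, edgeR adjusted p = 0.0398), and none passed in the other comparisons with L − N. The part of hypoxia signalling in the level of VEGFA was not tested.

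**Figure D4:**
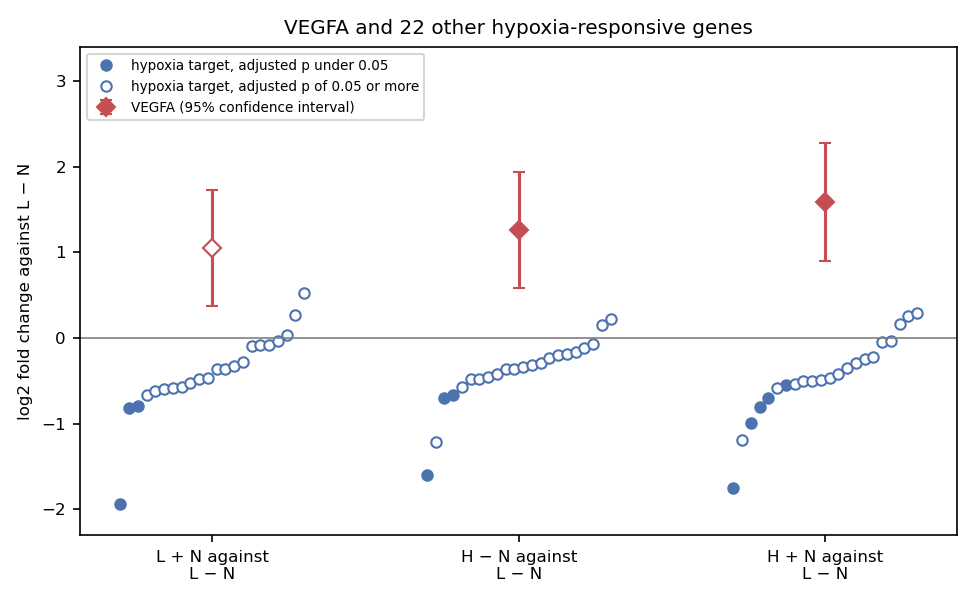
Log2 fold changes against L − N of VEGFA (diamonds, with 95% confidence interval) and of 22 other hypoxia targets (circles, sorted within each comparison), filled where the adjusted p is under 0.05. VEGFA lies at 1.05, 1.26 and 1.59, above all 22 targets in each of the 3 comparisons, and most of the targets lie below 0.

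The semaphorins and plexins, which share the neuropilins, held 12 tested genes. The semaphorin receptors PLXNA2 and PLXND1 were lower in H − N than in L − N (log2 fold change -0.70 and -0.77, edgeR adjusted p = 0.0279 and 0.0311). PLXNA2 was also lower in L + N (-0.55, edgeR adjusted p = 0.0369), and none passed in H + N. Of 15 tested genes of ligand release and processing, MMP2, MMP14 and THBS1 were lower in H − N, with log2 fold changes of -1.01, -1.36 and -1.86 (edgeR adjusted p = 0.0432, 0.0450 and 0.0421). MMP2 and MMP14 are matrix proteases, and THBS1 encodes thrombospondin 1, an inhibitor of angiogenesis. MMP14 was also lower in L + N (-1.49, edgeR adjusted p = 0.0232), and none of the 15 passed in H + N. Among 13 partners and regulators of the receptors, the phosphatase PTPRJ was lower in H + N (-0.77, edgeR adjusted p = 0.0300) and the endocytic adaptor DAB2 with H − N (-0.96, edgeR adjusted p = 0.0270). No gene of these 3 groups passed upward with edgeR. Of the 12, 15 and 13 genes, 0, 0 and 1 passed in H + N, 2, 3 and 1 in H − N, and 1, 1 and 0 in L + N, beside shares of 7.97%, 5.27% and 9.60% of all genes. With DESeq2 the counts were 2, 3 and 1 in H + N, 2, 3 and 2 in H − N, and 8, 3 and 2 in L + N, and under some single omissions they were 0.

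The VEGF signaling pathway of the deposited KEGG annotation held 51 tested genes apart from the members VEGFA and KDR, which it also lists and which are not counted here. Of the 51, 3, 6 and 3 passed with H + N, H − N and L + N against L − N, where 7.97%, 5.27% and 9.60% of all genes passed. DESeq2 called 9, 11 and 16 of the 51, and with edgeR each count fell to 0 under some single omission. In H + N against L − N, 1 was higher and 2 lower, with a median log2 fold change of -0.13. PIK3R1, a regulatory subunit of phosphoinositide 3-kinase, rose by 0.90 on the log2 scale (edgeR adjusted p = 0.0262), and the kinase MAPK3 fell by 0.39 (edgeR adjusted p = 0.0402). In H − N, 2 were higher and 4 lower. They included PIK3R1 (0.88, edgeR adjusted p = 0.0322) and the p38 kinase MAPK13 (0.84, edgeR adjusted p = 0.0304) upward, and the protein kinase C gene PRKCB (-0.94, edgeR adjusted p = 0.0404) downward. In L + N, 0 were higher and 3 lower, namely MAP2K1, RAC1 and MAPK3, with log2 fold changes of -0.49, -0.39 and -0.45 (edgeR adjusted p = 0.0236, 0.0486 and 0.0215). For NCG against no NCG, PIK3CA, the catalytic partner of PIK3R1, was higher (0.74, edgeR adjusted p = 0.0344) and MAPK3 lower (-0.27, edgeR adjusted p = 0.0405).

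Some markers of vessel cells were lower than in L − N. In whole tissue, fewer cells of a type and less RNA per cell cannot be told apart. The summed level of 14 blood endothelial markers was 1718 ± 272 CPM with L − N, 1168 ± 117 with L + N, 1457 ± 63.7 with H − N and 1336 ± 183 with H + N (SD, n = 3). The adhesion molecule PECAM1 fell by 0.78 with H + N and 1.09 with L + N on the log2 scale (edgeR adjusted p = 0.0374 and 0.0110), and PLVAP by 0.55 and 0.62 (edgeR adjusted p = 0.0498 and 0.0283). CDH5 fell by 0.70 with L + N (edgeR adjusted p = 0.0349), and of the 14 markers none passed in H − N. With H + N, H − N and L + N, 2, 0 and 3 of the 14 passed, beside 7.97%, 5.27% and 9.60% of all genes. In the same order, 3, 1 and 2 of them had a log2 fold change above 0. The mean of SOX17 was 45.3 CPM with L − N, 65.3 with L + N, 100 with H − N and 72.1 with H + N. For NCG against no NCG, PECAM1 and PLVAP were lower, by log2 differences of -0.74 and -0.50 (edgeR adjusted p = 0.0118 and 0.0186). The 7 mural cell markers summed to 1608 ± 140 CPM with L − N and to 1124 ± 113, 1085 ± 134 and 1263 ± 215 CPM with L + N, with H − N and with H + N. The pericyte marker RGS5 fell by 0.91, 1.52 and 0.66 with H + N, H − N and L + N (edgeR adjusted p = 0.0168, 0.00796 and 0.0284), and was lower in high than in low fiber (log2 difference -0.88, edgeR adjusted p = 0.0343). CSPG4 was lower in H − N and L + N (-1.04 and -0.87, edgeR adjusted p = 0.0299 and 0.0333), and MCAM in L + N (-0.82, edgeR adjusted p = 0.0177). Of the 7 mural markers, 1, 2 and 3 passed with H + N, H − N and L + N. The counts of both marker lists reached 0 in each of the 3 comparisons under some single omission.

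The 6 macrophage markers summed to 579 to 1536 CPM with L − N, 415 to 631 with L + N, 294 to 445 with H − N and 415 to 569 with H + N. Of the 6, 3 were lower in H + N, 4 with H − N and 2 with L + N, and none was higher. Of all genes, 7.97%, 5.27% and 9.60% passed in these comparisons. CD163, a scavenger receptor, fell by 1.71, 2.02 and 1.58 with H + N, H − N and L + N (edgeR adjusted p = 0.0332, 0.0279 and 0.0364). CD14, the lipopolysaccharide co-receptor, had log2 fold changes of -1.31, -1.56 and -1.42 in the same order (edgeR adjusted p = 0.0218, 0.0192 and 0.0115). CSF1R was lower in H + N and H − N (-1.35 and -1.66, edgeR adjusted p = 0.0284 and 0.0225) and CD68 in H − N (-1.62, edgeR adjusted p = 0.0495). Without L − N replicate 1, 5, 6 and 4 of the 6 passed in H + N, H − N and L + N. Under some other single omission each of these counts fell to 0. Macrophages can express both VEGFA and NRP2, and the macrophage sum was high in 2 of the 3 L − N libraries, while NRP2 was high and VEGFA low in all 3. For NRP2 and the macrophage sum, r was 0.74 over the 12 libraries (permutation p = 0.00555, adjusted 0.0388) and rho 0.74 (permutation p = 0.00799, adjusted 0.0852), with an r of 0.49 without the 2 farthest libraries and 0.17 for deviations from the group means. For VEGFA r was -0.79 (permutation p = 0.00119, adjusted 0.0250) and rho -0.78 (permutation p = 0.00368, adjusted 0.0773), with -0.55 and -0.47 for the other two measures. Leaving out L − N replicate 1 gave an r of 0.83 for NRP2 and -0.84 for VEGFA, and within groups of 0.39 and -0.61. The permutations for the marker sums, here and below, moved libraries across all 4 groups, so their p also takes up differences between groups. The part of the cell makeup in the results for VEGFA and NRP2 was not tested.

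The 6 stromal markers, chiefly collagen genes, summed to 26950 ± 1839 CPM in L − N, 35560 ± 10660 in L + N, 44040 ± 14580 under H − N and 45630 ± 12910 under H + N (SD, n = 3), and none of them passed in the comparisons with L − N. The means of these markers did not move together. From L − N to H − N and H + N, COL1A1 went from 4960 to 10000 and 10800 CPM, and DCN from 3160 to 2460 and 2770 CPM. LUM went from 1850 to 1820 and 2270 CPM, and PDGFRA from 641 to 648 and 786 CPM. VEGFA and FLT1 were higher where the stromal sum, mostly collagen transcripts, was higher. Both had an r of 0.77 (permutation p = 0.00382 and 0.00203, adjusted 0.0349 and 0.0320), with a rho of 0.71 and 0.74 (permutation p = 0.0117 and 0.00811, adjusted 0.0931 and 0.0852), and within groups r was 0.56 for VEGFA and 0.76 for FLT1. Without the 2 libraries farthest from the median stromal sum, r was 0.76 and 0.58. VEGFB went the other way, with an r of -0.77 (permutation p = 0.00368, adjusted 0.0349) and a rho of -0.66 (permutation p = 0.0236, adjusted 0.111). Its r was -0.62 without the 2 farthest libraries and -0.73 within groups. The 7 epithelial markers summed to 1292 ± 259, 1470 ± 40.4, 1878 ± 406 and 1231 ± 61.9 CPM in the order of the plots, and the adhesion molecule CDH1 was higher in H − N than in L − N (log2 fold change 0.83, edgeR adjusted p = 0.0279). VEGFC was lower where the epithelial sum was higher, with an r of -0.81 (permutation p = 0.00072, adjusted 0.0227) and a rho of -0.79 (permutation p = 0.00321, adjusted 0.0773). That r was -0.77 without the 2 farthest libraries and -0.49 within groups. Of the trophoblast markers, the transcription factor ELF5 was higher in H + N (1.59, edgeR adjusted p = 0.0432) from a group mean of 0.755 CPM in L − N. TFAP2A and TFAP2C passed in none of the comparisons. Their group means were 3.04 and 3.32 CPM with L − N, 4.71 and 6.07 with L + N, 3.05 and 6.82 with H − N, and 3.52 and 6.35 with H + N. The trophoblast sum was low, with means of 7.25 ± 3.92, 12.1 ± 3.3, 12.1 ± 2.29 and 12.2 ± 4.49 CPM from L − N to H + N (SD, n = 3). It came almost wholly from ELF5, TFAP2A and TFAP2C, as the placental PAG6 and PPAG3 had 0 counts. NRP2 was lower where that sum was higher, with an r of -0.70 (permutation p = 0.00784, adjusted 0.0494) and a rho of -0.77 (permutation p = 0.00545, adjusted 0.0852). That r was -0.68 without the 2 farthest libraries and -0.46 within groups. FLT4 was also lower there, with an r of -0.77 (permutation p = 0.00443, adjusted 0.0349) and a rho of -0.58 (permutation p = 0.0526, adjusted 0.158). Its r was -0.49 without the 2 farthest libraries and -0.76 within groups. Without L − N replicate 1, which had the lowest trophoblast sum (3.12 CPM), r was -0.51 for FLT4 and -0.64 for NRP2. The part of cell makeup in these levels of the VEGF genes was not tested.

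FLT4 followed the lymphatic markers from library to library, whereas the relation of NRP2 to them passed with Pearson r only. The 7 lymphatic endothelial markers summed to 581, 178 and 469 CPM with L − N, 238, 294 and 160 with L + N, 89.4, 289 and 179 with H − N, and 206, 260 and 136 with H + N. Among them, PDPN was lower in H + N (log2 fold change -1.87, edgeR adjusted p = 0.0296) and FOXC2 with H − N (-1.38, edgeR adjusted p = 0.0364), and none passed in L + N. On the log2 scale, FLT4 and the lymphatic sum had a Pearson r of 0.88 over 12 libraries (permutation p = 0.00011, adjusted 0.00693) and a Spearman rho of 0.89 (permutation p = 0.00021, adjusted 0.0132). The r was 0.82 without the 2 libraries farthest from the median sum and 0.90 for deviations from the group means. This was the one relation of 63, from 9 genes and 7 marker lists, that passed with both coefficients. With Pearson r, 10 of the 63 passed. NRP2 had an r of 0.76 (permutation p = 0.00443, adjusted 0.0349), a rho of 0.68 (permutation p = 0.0191, adjusted 0.109), an r of 0.52 without the 2 farthest libraries and of 0.65 within groups. In L − N, replicate 2 had a lymphatic sum within the range of the other diets, and an NRP2 of 127 CPM. The part of lymphatic cells in the levels of FLT4 and NRP2 was not tested. KDR and the blood endothelial sum gave an r of 0.49 (permutation p = 0.109, adjusted 0.229) and a rho that also did not pass. The r became -0.13 without the 2 farthest libraries.

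**Figure D5:**
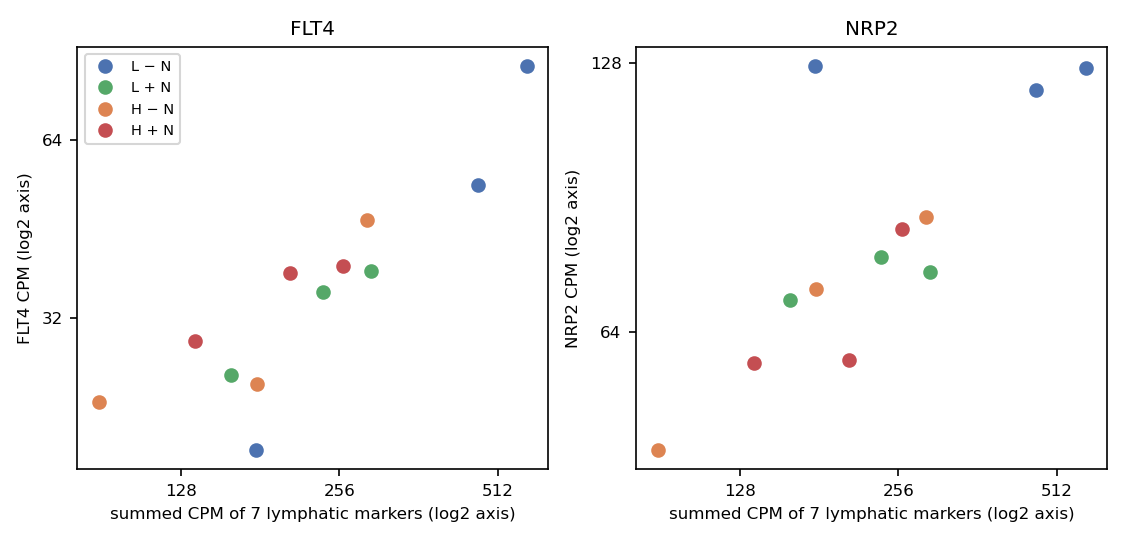
FLT4 (left) and NRP2 (right) in CPM against the summed CPM of 7 lymphatic endothelial markers, 1 point per library, both axes on log2 scales. FLT4 rises with the markers across all groups, and the 3 L − N libraries lie at 120 to 127 CPM of NRP2, above the rest, at marker sums from 178 to 581 CPM.

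Among the 9 genes themselves, VEGFA and NRP2 had the most opposed levels over the 12 libraries, with an r of -0.88. For deviations from the group means it was -0.61, and VEGFC and PGF were more opposed there, at -0.69. Without L − N replicate 1 these within-group values became -0.63 and -0.38, so VEGFC and PGF were then the less opposed pair. PGF and KDR went together (r = 0.69, and 0.78 within groups), with L − N replicate 1 the highest in both, and r was 0.44, and 0.31 within groups, without that library. These values describe 12 libraries that share groups and scaling. The genes with the pattern most like each member were taken from all tested genes with a symbol, by Pearson r of log2 CPM. For VEGFA they were ADAMTS9 (0.962), CACNA1G (0.955) and SLC9A5 (0.950). For VEGFB they were NQO2 (0.990), C6H19orf12 (0.956) and BTBD2 (0.955), and for VEGFC they were POPDC3 (0.908), PBX3 (0.905) and MLLT11 (0.876). KIF25 (0.858), DMPK (0.850) and SRL (0.847) were the nearest to PGF. Among the receptors, FLT1 was nearest to THSD4 (0.931), YAE1D1 (0.923) and GMPS (0.921), and KDR to TDRD10 (0.907), LTBP1 (0.890) and TUBB6 (0.882). FLT4 was nearest to MMRN1 (0.960), RELN (0.951) and SYNM (0.935), and MMRN1 and RELN belong to the lymphatic marker list. NRP1 was nearest to BRCC3 (0.950), CAT (0.893) and AHCYL2 (0.876), and NRP2 to MCUB (0.941), ANPEP (0.930) and KCTD10 (0.924).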

How the data were processed

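Endometrial poly(A) RNA was sequenced in 12 libraries. Per the labels' processing notes, the authors used fastp 0.22.0, HISAT2 2.1.0 and HTSeq 0.9.1 with Sscrofa11.1. The strand setting of the counting is not given in the sources used here. The deposited table held raw counts per gene and the authors' FPKM values. FPKM served to compare genes with each other, and the resulting order, shares and ratios were also compared between groups. Libraries were grouped by their deposited titles. Counts were fitted with edgeR 4.0.16 in R 4.3.3 (filterByExpr, TMM, quasi-likelihood F-test, 1 mean per group, 12 libraries, 15351 genes, Benjamini-Hochberg over all of them). The common biological coefficient of variation was 0.269. A gene passed at an adjusted p under 0.05, and CPM used the TMM-scaled library size. Scripts were tested on simulated data. The members and lists were chosen with earlier results of these data known. The text names all 9 members, the list genes past the test (where more than 4 passed, the 2 highest and the 2 lowest), and the 3 genes most like each member. PDK1 with H + N, TFAP2A and TFAP2C fell outside this rule and were added after their values were seen. The alternatives were RLE scaling, DESeq2 1.42.0, no filter, the replicate number as a block, the 2 groups alone and leaving out each library. A pathway gene that the rule for named genes selected is counted but not reported here by name. The deposited fold changes and p-values were not used. The coordinates are those of the deposited table. No sequences were printed.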

Additional observations from a re-analysis of the deposited data

Results flagged for a closer look

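VEGFC, the ligand of FLT4, was the one member whose libraries lay apart in opposite directions for each factor at both levels of the other. The share of all tested genes with such a pattern was not counted, so whether it is unusual is not known. Estimates of opposite sign for both factors were also found for PGF, FLT4 and NRP1, but with libraries that overlapped. Under low fiber, all 3 libraries with NCG (16.4 to 17.0 CPM) lay below all 3 without it (17.6 to 27.9 CPM). Under high fiber, all 3 with NCG (17.8 to 25.4 CPM) lay above all 3 without it (13.7 to 14.2 CPM). The log2 fold changes for NCG were -0.40 (95% confidence interval -0.81 to 0.00) and 0.66 (0.25 to 1.07). Likewise, fiber went with a lower level without NCG (-0.66) and a higher one with it (0.41). The interaction was 1.065 on the log2 scale, with a 95% confidence interval of 0.49 to 1.64, and did not pass over all genes with edgeR (unadjusted p = 0.00181, adjusted p = 0.255). It passed with DESeq2 (adjusted p = 0.0206) and without L − N replicate 1 (1.21, edgeR adjusted p = 0.0325), and its adjusted p ranged up to 0.563 over the other alternatives.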

How the results depend on the processing

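The direction was followed for 26 fold changes of the members, those with an unadjusted p under 0.05 and some chosen for the text. The latter were PGF, KDR, FLT4 and NRP1 in H + N against L − N, and VEGFC in L + N against L − N and in H + N against L + N. Over their 434 alternatives, 430 kept their direction. Over 1081 alternatives of the 64 list fold changes past the test all kept it, these last alternatives being chosen after seeing the data. Most of these fold changes were picked by their p in the same libraries that the alternatives use. Kept directions were therefore likely beforehand and are no separate support. The exceptions among the 26 were values that had not passed. Some other member fold changes, also not past the test, turned more often. KDR in H − N against L − N did so in 6 alternatives and VEGFC in H + N against L − N in 10. Without single libraries, PGF in H + N against L − N ranged from -0.51 to 0.48 and KDR from -0.16 to 0.42, with -0.01 and -0.11 between. RLE scaling and no filter on low counts changed no count of members. With the 2 groups alone, 0 members passed with H + N, 0 with H − N and 2 with L + N against L − N, with fewer libraries for the spread. DESeq2 called 4, 3 and 2 members there (VEGFB and FLT1 in addition with H + N, VEGFC with H − N and VEGFA with L + N), 3 for fiber, 1 for NCG, 1 for the interaction and 4 for any difference, and the cause was not tested. Leaving out 1 library, the members past the test numbered 0 to 3 with H + N, 0 to 3 with H − N, 0 to 2 with L + N against L − N, 0 to 1 for fiber, 0 to 2 for NCG, 0 to 1 for the interaction and 0 to 2 for any difference, so single calls near the threshold are not secure at 3 libraries a group.

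Over all genes, 1223, 809 and 1474 passed with H + N, H − N and L + N against L − N, 8 for fiber, 1116 for NCG and 1068 for any difference, and none for the interaction or the remaining pairs. DESeq2 called 2680, 2091, 2698, 1123, 2034 and 3365, with 294 for the interaction, 45 for H + N against H − N and 2 for H + N against L + N. The 2 groups alone gave 111, 3 and 1391 genes with H + N, H − N and L + N. Leaving out 1 library gave 1 (without H + N replicate 1) to 1823 with H + N, 0 (without H − N replicate 1) to 2025 with H − N, 207 to 1964 with L + N, 0 to 1088 for fiber, 519 to 1231 for NCG, 0 to 437 for the interaction and 4 to 1732 for any difference, the highest each time without L − N replicate 1. Without L − N replicate 3 the counts were 4, 6 and 207 in the 3 comparisons with L − N. The shares of all genes given beside the counts of members are therefore not stable either.

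Replicate numbers are shared by the groups in the labels. Same-numbered libraries deviated from their group means with correlations of -0.32 to 0.28 (median -0.04, 18 pairs), so the numbers were not taken to pair the sows. With the replicate number as a block, 1 member (NRP2) passed for any difference, VEGFA having an adjusted p of 0.0560, and the members past the test were the same in all other comparisons. Over all genes the block left 730 and 380 calls with H + N and H − N against L − N, 1 for fiber and 477 for any difference.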
